A study of Sus scrofa with 2 samples.

Results

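The CpG cytosines examined here lie on unplaced scaffolds, stretches of assembled pig sequence that no chromosome had been given. They were chosen by name alone: every cytosine listed in both libraries on a sequence other than chromosomes 1 to 18, X, Y and the mitochondrial genome, all of which had names beginning with GL or JH. This gave 238062 of the 7002043 nuclear cytosines that both libraries listed, or 3.40%. They lay on 3484 scaffolds. Of these, 747 held at least 100 shared cytosines and are described one by one, and they carried 167265 cytosines, or 70.3% of the members. The other 2737 scaffolds held 1 to 99 and enter only the pooled values.

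DNA came from the longissimus dorsi, the long muscle of the back, of 2 healthy female Tibetan pigs. The high-altitude pig ranged freely on the Tibetan highland, at 4000 m on average. The low-altitude pig was kept on ordinary daily feed on the Chengdu plain, at 500 m on average, and its ancestors had lived in the lowland for nearly 10 generations. Each group gave 1 pig and 1 library, so altitude, feeding, housing, descent, the single animal and the library preparation cannot be told apart, and no value below has a replicate error. No age of either pig is given in the sources used here.

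In vertebrate cells most cytosines of CpG dinucleotides carry a methyl group, which maintenance methyltransferase copies to the new strand at each cell division. Methylation is dense in repeats and gene bodies and low at active promoters and enhancers. Female cells silence a copy of X, and X chromosomes of female tissue have lower levels over much of their length. Unplaced scaffolds are sequence that could be assembled but not anchored. They can come from any chromosome, and repeated or duplicated sequence is often among them. Reads of near-identical copies that are missing from an assembly pile up on the copy that is present, which raises depth there. The names of the scaffolds do not say where in the genome they belong. No gene annotation of the same assembly was used here, so the scaffolds are described by name, position, level and depth, without genes and without sequence.

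Bisulfite sequencing reads unmethylated cytosine as thymine, and the level of a cytosine is its share of reads still showing cytosine. On unplaced scaffolds the high-altitude library held 367793 cytosines (3224134 reads) and the low-altitude library 354906 (3079085 reads). No listed cytosine had fewer than 5 reads or lacked a methylated read, so CpGs without a methylated call are absent and all levels refer to listed cytosines. Shared cytosines on scaffolds had a mean depth of 9.95 reads at high and 9.76 reads at low altitude. On chromosomes 1 to 18 the means were 11.05 and 10.8 reads.

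Unplaced scaffolds were methylated to about the autosomal level in both pigs and stood well above X. The mean site level, in which each shared cytosine counts once, was 74.7% ± 0.20 at high altitude and 73.6% ± 0.20 at low altitude (SE over 3484 scaffolds). Chromosomes 1 to 18 had 74.1% and 73.1%, and X had 61.9% and 60.2%. Over summed reads the scaffolds had 74.6% at high altitude (95% Wilson interval 74.5 to 74.6) and 73.4% at low altitude (73.4 to 73.5), against 72.0% and 71.1% on the autosomes. Scaffolds thus exceeded the autosomes by less than a point when sites counted equally and by over 2 points when reads did. Cytosines with more than 60 reads held 4.77% of the autosomal reads at high altitude and 0.224% of the reads on scaffolds.

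Among the 747 larger scaffolds the level (the mean of both libraries) was spread much as among autosomal bins. Its median over scaffolds was 75.3%, with a middle range from 70.3% to 79.1%, and 21122 autosomal bins of 100 kb with at least 100 shared cytosines had a median of 74.3% (69.2% to 78.4%). The 1176 bins of X had a median of 59.9% (54.7% to 65.01%). Below 65% lay 76 scaffolds (10.2%), 12.4% of the autosomal bins and most of the bins of X. At 80% or more lay 160 scaffolds (21.4%), 16.3% of the autosomal and 0.595% of the X bins. Scaffolds held fewer cytosines than bins, with a median of 172 against 286. With autosomal bins weighted to the same numbers of cytosines, 15.3% of bins were below 65% and 14.8% at 80% or more. On both counts the scaffolds were shifted toward higher levels than bins of like size, and this shift was not tested.

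**Figure D1:**
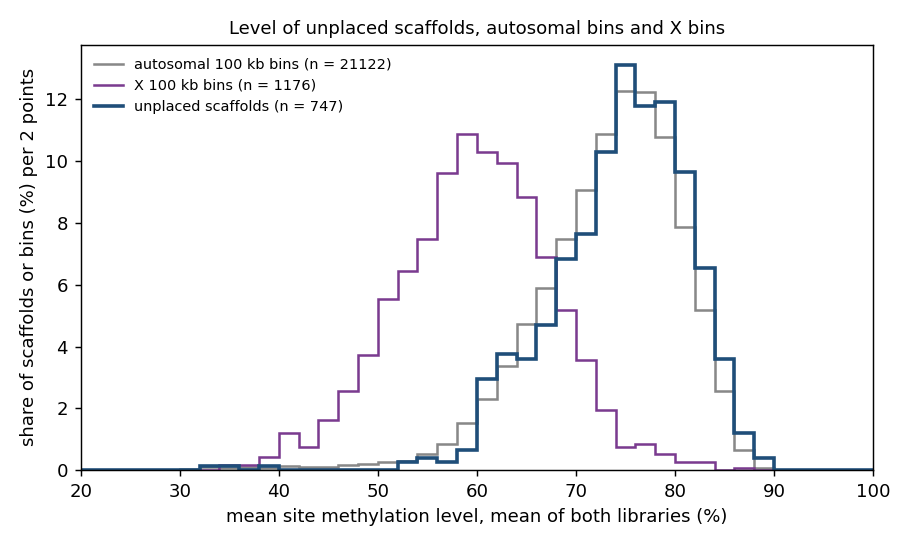
Share of scaffolds or 100 kb bins (vertical axis, percent per 2 points) at each mean site level (horizontal axis, percent, mean of both libraries), for 747 unplaced scaffolds, 21122 autosomal bins and 1176 bins of X. The scaffolds follow the autosomal bins, around medians of 75.3% and 74.3%, while the bins of X lie around 59.9%.

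Levels of single scaffolds recurred in both pigs, with a Pearson correlation of 0.949 between the libraries across 747 scaffolds (0.964 across autosomal bins). Scaffolds are not replicates, and this value describes their spread. The level of a scaffold was only weakly related to its depth, with a correlation of −0.190 in the high-altitude library. On X that correlation was −0.716 across bins, and on the autosomes −0.113. Scaffolds below 65% had a mean depth of 10.4 ± 1.45 reads at high altitude (SD over 76 scaffolds), those at 65 to 80% had 10.05 ± 1.09 reads (511 scaffolds) and those at 80% or more had 9.81 ± 0.957 reads (160 scaffolds). These depth ranges overlapped widely.

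The 6 scaffolds with most shared cytosines were all methylated in most reads. GL894691.2 had 1366 shared cytosines over 182 kb, with 76.0% ± 0.80 at high and 73.9% ± 0.74 at low altitude (SE over 1 kb windows, as for every single scaffold below). GL892628.1, with 1241, had 78.3% and 77.4%, and GL895308.2, with 1093, had 76.7% and 75.3%. GL892680.2, with 1021, had 79.9% and 77.8%. JH118966.1 had 994 shared cytosines and the widest gap of the 6, and its levels were 73.6% and 70.2%. GL894730.2, with 830, had 71.8% and 71.2%. In all 6 the low-altitude pig had the lower level, by −0.61 to −3.46 points, and in 5 of them both strands showed that direction. The exception was GL894730.2, with −1.72 points on the plus and 0.42 points on the minus strand.

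A few scaffolds were poorly methylated along their whole length. GL893311.1 had 34.5% ± 1.4 at high and 32.8% ± 1.6 at low altitude over 271 cytosines spanning 183 kb, the lowest level of the 747. Each of its 19 segments of 10 kb was below 60% in both libraries, between 26.7% and 56.7% at high and between 18.5% and 52.5% at low altitude. Its shared cytosines were sparse, at 1.48 per kb, where the median scaffold had 2.94. GL895815.1 had 36.1% ± 2.1 and 33.8% ± 2.8 over 103 cytosines, also at a low density of 1.28 per kb. GL894155.1 had 36.7% ± 2.4 and 41.2% ± 2.8 over 108 cytosines, at 15.1 and 13.9 reads per cytosine. These 3 were the only scaffolds below 40%, a share of 0.402%, against 0.407% of autosomal bins. None of the 747 lay between 40 and 50%, which allows a share of up to 0.402%, and 0.705% of autosomal bins did. Next in order came GL895286.1, with 54.3% ± 2.2 and 50.9% ± 2.3, and GL896387.1, with 55.5% ± 1.5 and 50.4% ± 1.6. Their levels differed from each other by less than their errors and from the first 3 by more.

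The most methylated scaffolds stayed below 90%, as the autosomal bins did, whose highest mean level was 88.9%. GL892789.1 had 88.1% ± 0.72 at high and 89.1% ± 0.66 at low altitude over 332 cytosines, and its 9 segments all lay at 84.5% or more in both libraries. GL893651.2 had 87.0% ± 1.6 and 89.4% ± 0.93, and GL895443.2 had 88.0% ± 1.8 and 88.5% ± 1.4. GL896549.1 had 87.3% ± 1.3 in both, and GL893811.1 had 87.3% ± 1.4 and 86.4% ± 1.1. The order among these 5 is not resolved, since their levels differed by less than about 2 SE.

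At matched depth the scaffolds lay inside the range of chromosomes 1 to 18. Only cytosines whose depth fell in the same 1 of 7 classes in either pig were used, which left 91730 members (38.5%), and autosomal class means were weighted by the members' class counts. The scaffolds had 74.7% at high altitude and 73.6% at low altitude, and the weighted autosomes had 74.4% and 73.3%. The gaps were 0.38 and 0.32 points. Single autosomes ran from 72.6% on chromosome 16 to 75.9% on chromosome 18 at high altitude, with an SD of 0.79 points, and 12 of 18 lay below the scaffolds in either library. X had 62.4% and 60.6% at the same depths. With cytosines of exactly equal depth in both libraries the gaps turned to −0.21 and −0.27 points. Either way the gap was smaller than that SD over single autosomes.

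The near-equal mean concealed a dependence on depth. At 5 to 6 reads the scaffolds had 75.2% ± 0.22 at high altitude (SE by scaffold, 30654 cytosines), below 17 of the autosomes and the autosomal mean of 75.8%. At 9 to 12 reads they had 74.7% ± 0.25, above the autosomal 74.0%. With 17 to 20 reads they had 75.3% ± 0.44 over 3027 cytosines, higher than each of the 18 autosomes, whose mean was 73.2% and maximum 75.2%. At 25 to 30 reads they had 72.5% ± 1.0 over 444 cytosines, against 69.8%, and at 31 to 60 reads 64.1% ± 2.9 over 133 cytosines, against 50.9%. Single autosomes were wide apart in this last class, from 41.4% to 68.8%. In the low-altitude library the values were 74.2% against 74.7% at 5 to 6 reads, 73.5% against 72.1% at 17 to 20 reads and 63.5% against 49.9% at 31 to 60 reads. There the scaffolds at 17 to 20 reads lay above 15 of the 18 autosomes, whose maximum was 74.8%. The level of the autosomes thus declined with depth more than that of the scaffolds did. The difference between the pigs, low minus high, varied by class as well. At 7 to 8 reads it was −1.46 ± 0.19 points on scaffolds and at 17 to 20 reads −1.78 ± 0.32 points, more negative than on each of the 18 autosomes. The most negative autosomes had −1.44 and −1.35 points there, so at 7 to 8 reads the margin was far below the SE. At 21 to 24 reads the difference was −0.30 ± 0.51 points, and 17 of the autosomes were more negative. In the other classes 7 to 12 autosomes were more negative, and at 13 to 16 reads scaffolds had −0.90 ± 0.20 points against −0.97. In the wider class of 13 to 20 reads used for the matching, scaffolds had −0.970 points and autosomes −0.991.

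**Figure D2:**
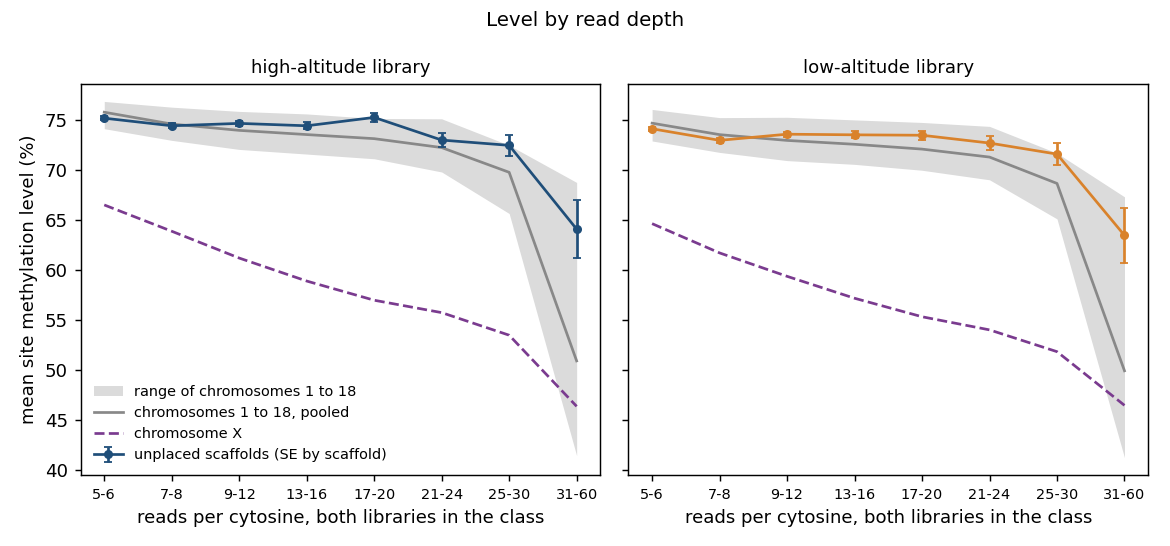
Mean site level (vertical axis, percent) by reads per cytosine (horizontal axis, both libraries in the class) in the high-altitude and the low-altitude library. Points are unplaced scaffolds with the SE by scaffold, the band is the range of chromosomes 1 to 18 the grey line their pooled mean and the dashed line X. In the high-altitude library the scaffolds lie near the lower part of the band at 5 to 6 reads (75.2%) and at its upper edge at 17 to 20 reads (75.3%). In the low-altitude library they lie inside the band at 17 to 20 reads (73.5%, with a band maximum of 74.8%).

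The low-altitude pig had slightly lower methylation on unplaced scaffolds, by as much as on the autosomes. The mean difference, low minus high altitude, was −1.12 ± 0.062 points (SE over 3484 scaffolds), with an SD of 21.4 points over single cytosines. The autosomal mean was −1.02 points and that of X −1.73 points. At matched depth the scaffolds had −1.10 points and the autosomes −1.04 points. This gap of −0.056 points was smaller than the SD of 0.19 points over the 18 autosomes, 7 of which had a more negative difference. Scaffolds of every size took part. The mean difference was −1.43 ± 0.35 points on 1041 scaffolds with 1 to 9 shared cytosines, −1.05 ± 0.15 on 1174 with 10 to 49, −1.11 ± 0.14 on 522 with 50 to 99, −1.06 ± 0.095 on 601 with 100 or more but under 300, and −1.23 ± 0.13 on 146 with 300 or more. These values differed by less than 2 SE of the class with fewest cytosines. At the minimum of 100, the 5 scaffolds with exactly 100 shared cytosines differed by 0.13 points on average and the 10 with 99 by −1.44 points.

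Most scaffolds shared the direction. Of the 747, 526 (70.4%) had a lower level in the low-altitude pig, against 71.4% of autosomal bins and 82.7% of bins of X. Both strands were lower in 367 scaffolds and both higher in 116. Across scaffolds the difference on the plus strand had a correlation of 0.307 with that on the minus strand (0.319 across autosomal bins). The strands of a scaffold come from the same 2 libraries, so this describes how far the differences recur within them. Scaffolds below 65% differed by −1.12 ± 2.52 points (SD over scaffolds), those at 65 to 80% by −1.22 ± 2.31 points and those at 80% or more by −0.66 ± 1.99 points.

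Differences of 5 points or more were seen in 40 scaffolds, with the low-altitude pig lower in 36 and higher in 4, or 4.82% and 0.535%. The background among autosomal bins was 2.48% lower and 0.549% higher. Scaffolds held fewer cytosines, and bins weighted to the same numbers gave 3.83% and 0.89%. In the smallest of 5 size classes 6.92% of scaffolds (11 of 159) were lower by 5 points, against 6.77% of bins, and in the next 9.09% (11 of 121) against 5.37%. The spread of the differences was alike as well, with SDs over scaffolds and bins of 2.67 and 2.69 points in the smallest class and of 1.53 and 1.76 points at 300 or more. In all, 675 scaffolds (90.4%) lay between the 5th and the 95th percentile of autosomal bins of their size class. The shares thus lay near the background, lower differences slightly above it and higher ones at or below it, and this was not tested.

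**Figure D3:**
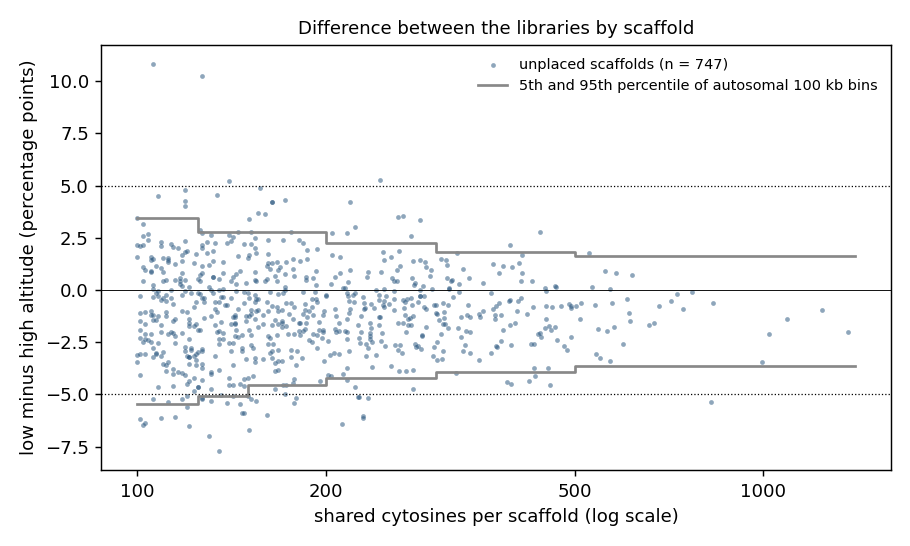
Difference in mean site level, low minus high altitude (vertical axis, percentage points), of each of 747 unplaced scaffolds by its number of shared cytosines (horizontal axis, log scale). Grey steps are the 5th and 95th percentiles of autosomal 100 kb bins of the same size class and dotted lines mark 5 points; 675 scaffolds lie within the steps, and 2 scaffolds stand apart above 10 points.

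In 2 scaffolds the low-altitude pig had a level over 10 points higher, about 5 points beyond the next. Differences of this size also occurred among the 21122 autosomal bins, which ran from −13.9 to 13.4 points. GL895177.1 had 62.1% ± 3.5 at high altitude (1031 reads) and 72.9% ± 2.6 at low altitude (1033 reads) over 106 cytosines, a difference of 10.8 ± 2.5 points. The difference was 6.65 points on the plus and 13.5 points on the minus strand, and it grew along the scaffold, from 3.1 points in the first 10 kb to 6.2, 10.7 and 19.3 points in the next 3 segments. In the last segment the level was 48.5% at high and 67.8% at low altitude over 29 cytosines. GL894995.1 had 66.3% ± 2.6 and 76.6% ± 2.2 over 127 cytosines, a difference of 10.2 ± 2.4 points, with 14.3 points on the plus and 6.76 on the minus strand. Its first segment, from 1 to 10000, had 81.2% and 81.0%. The difference lay mainly in the next pair, from 10001 to 20000 with 61.4% and 81.0%, and from 20001 to 30000 with 64.1% and 83.5%. Depth was alike in both pigs on either scaffold, with read ratios, low over high, of 1.002 and 0.978.

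The next scaffolds with higher levels at low altitude were about 5 points apart. GL893267.2 had 72.5% ± 1.6 and 77.7% ± 1.5 over 244 cytosines, and 7 of its 8 segments with at least 5 cytosines were higher. GL896198.1 had 66.2% ± 2.6 and 71.4% ± 2.4, higher in each of 3 segments. GL892358.1 had 52.8% ± 2.0 and 57.7% ± 2.7, a difference of 4.91 ± 2.0 points, higher in 4 of 5 segments. All 3 were higher on both strands.

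In the opposite direction no scaffold stood apart to that degree. GL894677.1 had 66.5% ± 2.9 and 58.8% ± 2.2, a difference of −7.70 ± 2.5 points, of which the plus strand showed −3.87 and the minus strand −11.7 points. Its 135 cytosines left a gap of 94.7 kb without a shared cytosine. GL893942.1 had 79.2% ± 1.6 and 72.2% ± 2.0, and GL893052.1 had 78.0% ± 2.2 and 71.3% ± 2.6, lower in each of its 6 segments. GL893321.1 had 77.0% ± 1.7 and 70.5% ± 2.2, lower in each of its 4 segments. GL895826.2 had 80.7% ± 1.7 and 74.2% ± 2.8. All 5 were lower on both strands. Of the 40 scaffolds with a difference of at least 5 points, 38 had the same sign on both strands. The 2 others, GL894815.2 and JH118921.1, had opposite signs on the strands and were named after their values were seen.

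Among scaffolds with at least 300 shared cytosines a single one passed 5 points. GL892946.2, chosen after its values were seen, had 75.7% ± 0.96 at high altitude (8605 reads) and 70.4% ± 0.82 at low altitude (8242 reads) over 825 cytosines and 234 kb. Its difference of −5.36 ± 0.82 points had a smaller error than those of the scaffolds named above for their differences, and the difference was −4.93 points on the plus and −5.75 points on the minus strand. Of its 17 segments with at least 5 cytosines 16 were lower at low altitude, and the differences ran from −10.2 to 0.91 points. The lower level was thus spread over the stretch from 10001 to 170000, which held most of its shared cytosines. The segments left out, with 4 and 1 cytosines, were higher at low altitude. Among the 146 scaffolds of this size none was higher by 5 points, which allows a share of up to 2.05%.

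**Figure D4:**
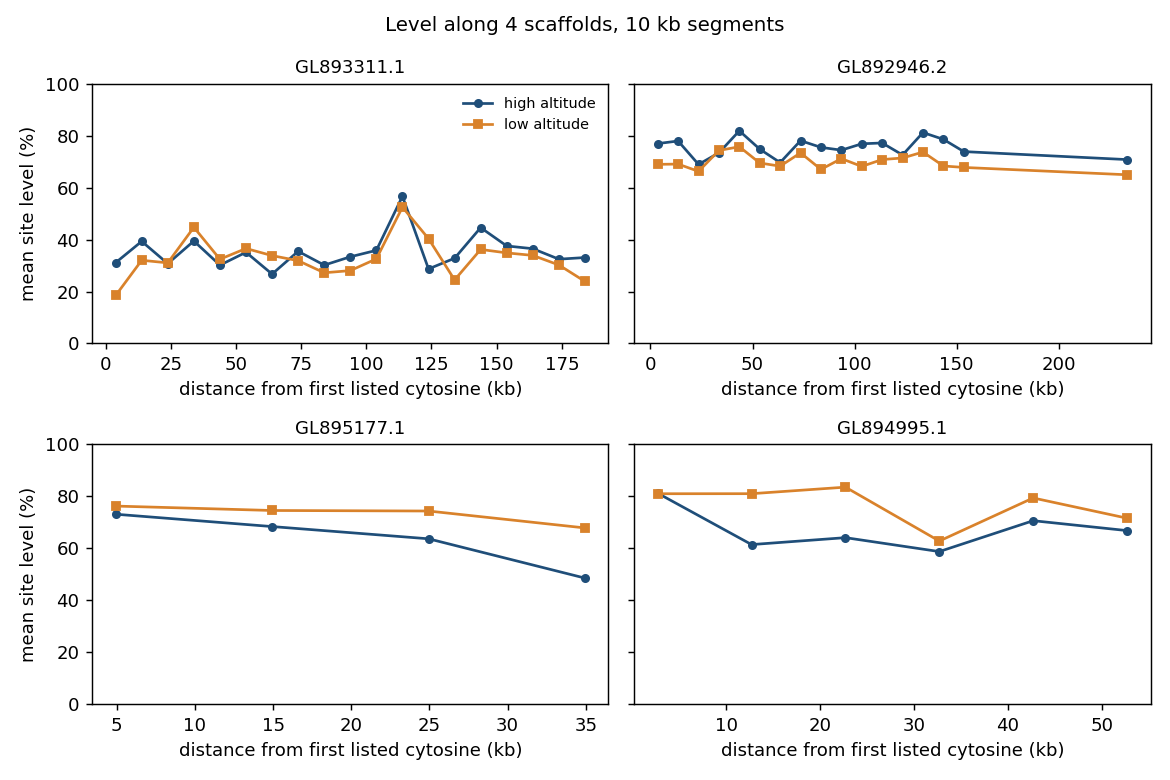
Mean site level (vertical axis, percent) of 10 kb segments with at least 5 shared cytosines along 4 scaffolds, by distance from the first listed cytosine (horizontal axis, kb), in the high-altitude (circles) and low-altitude (squares) library. GL893311.1 is low throughout, GL892946.2 is lower at low altitude in 16 of 17 segments, and GL895177.1 and GL894995.1 are higher at low altitude mainly in part of their length.

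Regions of 1 kb were compared by Fisher's exact test on summed reads, with Benjamini-Hochberg adjustment over all 462691 nuclear windows of at least 5 CpGs. A call needed an adjusted p below 0.05 and at least 20 points between the pigs. Of 14943 windows on scaffolds 67 were called (0.448%, 95% Wilson interval 0.353 to 0.569), against 0.494% in the nuclear genome and 0.399% to 0.681% on single autosomes. The low-altitude pig was lower in 39 and higher in 28, beside a nuclear background of 0.306% lower and 0.188% higher. The 67 windows lay on 62 scaffolds, at most 2 on each. The test compares 2 libraries and not 2 altitudes, and neighbouring CpGs often share reads, so its p-values are too small. The interval of the share on scaffolds includes the background.

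The called window with the largest fall was on GL893741.1, from 7001 to 8000. It had 91.4% (53 of 58 reads, interval 81.4 to 96.3) at high and 38.0% (19 of 50 reads, 25.9 to 51.8) at low altitude, −53.4 points apart over 6 CpGs (adjusted p = 1.11e-05 by Fisher's exact test). Its tested neighbour within 3 kb had 85.7% and 75.6%. On JH118985.1, from 50001 to 51000, the level was 79.4% and 32.4% with 34 reads in each library. On JH118621.1, from 29001 to 30000, it was 94.5% (55 reads) and 57.7% (97 reads), with unequal depth. On GL895309.1, from 49001 to 50000, the 9 CpGs had 79.8% (124 reads) and 44.1% (127 reads; exact test, adjusted p = 2.43e-05), and 2 neighbouring windows had 74.6% and 58.8% on average, in the same direction.

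Among called windows that rose, the largest difference was on GL895783.1, from 116001 to 117000. The level was 27.5% (19 of 69 reads, interval 18.4 to 39.05) at high and 76.8% (43 of 56 reads, 64.2 to 85.9) at low altitude, 49.2 points apart (adjusted p = 0.000112 by Fisher's exact test). Its neighbour had 72.2% and 66.2%, so the low value of the high-altitude pig did not extend to it. On GL894778.1, from 33001 to 34000, the level was 43.8% and 90.6% with 32 reads each. On JH118414.1, from 76001 to 77000, it was 30.9% (55 reads) and 71.7% (99 reads). On GL895288.1, from 49001 to 50000, it was 52.7% (55 reads) and 91.5% (47 reads). The neighbours of 3 of these 4 windows, other than those on JH118414.1, were lower in the low-altitude pig.

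Most windows on scaffolds had levels much like those of autosomal windows. With 5 to 9 listed CpGs, 39.9% of 12921 windows were above 80% and 10.6% at 40 to 60%, against 38.6% and 10.8% on autosomes and 7.40% and 35.3% on X. In this class 1.07% of windows on scaffolds and 1.23% on autosomes lay at 20 to 40%. With 10 to 19 CpGs, none of 1969 windows on scaffolds lay below 20%, which allows up to 0.152% and so includes the autosomal 0.0495%. At 20 to 40% lay 3 of them (0.152%), against 1.10% on autosomes and 0.968% on X. The gap was wider in the densest windows, which were few on scaffolds. Of 53 windows with at least 20 CpGs none on scaffolds lay below 60%, which allows up to 5.66%, and their mean levels were 80.7% at high and 79.7% at low altitude. On autosomes 14.1% of 1445 such windows lay at 20 to 40% and the mean levels were 71.4% and 70.2%. On X none of 64 such windows lay below 40%, 7.81% lay at 40 to 60%, and the mean levels were 74.0% and 71.3%. The absence of dense windows at 20 to 40% was thus not particular to scaffolds. These differences were not tested.

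The same test was run on single CpGs of 10 or more reads per pig, strands summed, and a call needed 25 points. Of 78946 CpGs on scaffolds 246 were called (0.312%, interval 0.275 to 0.353), against 0.323% of nuclear CpGs and 0.277% to 0.410% on single autosomes. With autosomal CpGs weighted to the reads of those on scaffolds the autosomal share was 0.306%. The low-altitude pig was lower at 140 and higher at 106, beside a nuclear background of 0.176% lower and 0.146% higher. Calls lay on 200 scaffolds, at most 4 on each, and their median size was 62.3 points. Among CpGs with at least 60 reads over both libraries, 38 of 2111 were called (1.80%, interval 1.31 to 2.46), against 1.09% on autosomes. Only 60 of the 2111 lay on the 8 scaffolds with very deep cytosines described below. None of these was called, with an interval up to 6.02%, too few CpGs to compare the shares.

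The largest single differences were near complete. In each CpG named here the less methylated pig had 1 methylated read, the minimum for listing. Thymine in a pig's own sequence would be counted like unmethylated cytosine, and sequence variants were not examined. On GL893584.1 the CpG from 6020 to 6021 was methylated in 13 of 13 reads at high altitude and in 1 of 19 at low altitude (adjusted p = 0.000233 by Fisher's exact test), while 3 CpGs within 500 bases had 72.6% and 69.1%. On GL894284.2 the CpG from 110785 to 110786 had 22 of 23 and 1 of 20 methylated reads (adjusted p of the exact test 6.57e-06), and 5 neighbours had 86.2% and 84.6%. The other 2 of the 4 largest falls, on GL895790.1 and JH118633.1, had neighbours that were also lower, with 90.9% and 61.5% over 2 CpGs beside the latter. In the opposite direction the CpG on JH118712.1, from 25897 to 25898, had 1 of 23 methylated reads at high and 16 of 17 at low altitude (adjusted p of the exact test 4.14e-05) and no listed neighbour within 500 bases. The CpG on GL893096.2 had 1 of 11 and 13 of 13 methylated reads with neighbours at 76.8% and 76.1%, that on JH118607.1 had 1 of 11 and 11 of 11 with neighbours at 56.7% and 55.8%, and that on GL893877.1 had 1 of 11 and 17 of 17 with a neighbour that was lower in the low-altitude pig.

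Depth on scaffolds was even, and piles of reads were rarer than on autosomes. In the high-altitude library 0.0193% of shared cytosines on scaffolds and 0.217% on autosomes had more than 60 reads, with maxima of 460 and 17225 reads. Piles were also rare on X, with 0.0284% and a maximum of 225 reads. Among the 747 larger scaffolds the mean depth ran from 7.18 to 15.1 reads at high altitude. By the mean of both libraries the deepest were GL894968.1, with 15.1 and 14.4 reads, GL894155.1, with 15.1 and 13.9, GL893877.1, with 14.1 and 13.9, and JH118407.1, with 12.9 in both. The place of GL894968.1 rests on 9 very deep cytosines, and its other 162 cytosines had a mean of 11.4 and 10.4 reads, below 122 of the other scaffolds. All 4 had levels below the median of scaffolds, from 36.7% to 70.8% at high altitude.

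The read ratio, low over high, was 0.979 ± 0.044 (SD over 747 scaffolds), and no scaffold lay 1.5 times or more from the autosomal ratio of 0.975, which allows up to 0.402% (autosomal bins 0.265%). The smallest ratio was 0.793 on GL895140.1 (1496 and 1187 reads), followed by 0.858 on JH118811.1, 0.864 on GL893524.1 and 0.873 on GL894252.2. The largest were 1.13 on GL894778.1, GL896310.1, GL893007.1 and GL893311.1. On GL893311.1 the excess at low altitude lay mainly from 80001 to 90000 (138 and 241 reads) and from 90001 to 100000 (188 and 406 reads). The difference in level had a correlation of 0.024 with this ratio across scaffolds.

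Very deep cytosines on scaffolds were few and lay in a few clusters. More than 60 reads in either library were seen at 53 shared cytosines on 8 scaffolds, 6 of which held fewer than 100 shared cytosines. Of the 53, 26 lay within the first 1 kb and 46 within the first 5 kb, where 1.89% and 9.59% of all members lay. Scaffolds with at least 100 shared cytosines held 15 of the 53, none within the first 2 kb, 9 at 2 to 5 kb on GL894968.1 and 6 beyond 100 kb on GL893254.2. On GL894518.1, 14 of them between 592 and 812 had 50.9% over 1247 reads at high and 58.95% over 3379 reads at low altitude, a read ratio of 2.71. On GL895316.1, 10 between 2263 and 2401 had 76.6% (595 reads) and 76.4% (1222 reads), a ratio of 2.05. On GL892106.1, all 10 shared cytosines, between 88 and 268, were deep, with 82.0% (2211 reads) and 77.2% (2789 reads). GL894968.1, the deepest of the larger scaffolds, had 9, at 58.1% and 57.5%. The other 10 lay on GL893254.2, GL892993.1, GL892295.2 and GL893646.2. These scaffolds were named after their values were seen. The mean level near the start differed little from that of the interior. Within the first 1 kb the level was 73.9% ± 0.55 at high altitude over 4508 cytosines, and from 20 to 50 kb it was 74.6% ± 0.25, a gap of less than 2 SE.

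Scaffolds differed from the autosomes in the spacing of listed CpGs. Neighbouring shared CpGs were a median of 119 bases apart on scaffolds and 136 bases on autosomes, so they were closer in the dense part. Yet 1.04% of the distances on scaffolds and 0.297% on autosomes were over 10 kb. Scaffolds named JH more often had long gaps. A gap over 10 kb was found in 76.5% of the 132 JH scaffolds and in 24.9% of the 615 GL scaffolds (153). The JH scaffolds had a median largest gap of 23.6 kb and 1.66 shared cytosines per kb, and the GL scaffolds 3.97 kb and 3.10 per kb. The longest gap, 200.5 kb, was on JH118966.1, within a span of 469 kb. In level and difference both kinds were alike, with 74.7% ± 6.27 and 73.5% ± 6.41 on JH scaffolds (SD over scaffolds), 75.03% ± 7.17 and 73.96% ± 7.35 on GL scaffolds, and differences of −1.21 ± 2.09 and −1.07 ± 2.32 points.

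The lists of both pigs overlapped slightly less on scaffolds than on autosomes. Of the cytosines listed at high altitude 64.7% were also listed at low altitude, against 67.1% on autosomes, and of those listed at low altitude 67.1%, against 69.3%. These shares were not matched by depth, and mean depth was lower on scaffolds. Cytosines listed in a single library had lower levels than shared ones, with 72.6% over 129731 cytosines at high and 71.5% over 116844 at low altitude, against 74.7% and 73.6%. Their median depth was 6 reads in each library. On autosomes the levels were 73.05% and 72.3%, against 74.1% and 73.1% at shared cytosines. The lists named 3811 scaffolds in all. Of these, 119 appeared in the high-altitude list only, 105 in the low-altitude list only and 103 in both without a shared cytosine, and together they held 1533 listed cytosines, counted once per list.

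Levels on the plus and minus strand of a CpG were less closely related on scaffolds than on autosomes. Among 2468 CpGs with at least 10 reads on each strand in both libraries, the levels of both strands had a correlation of 0.713 at high and 0.676 at low altitude, against 0.780 and 0.767 over 93053 autosomal CpGs. On X the strands were related no more closely than on scaffolds, with 0.676 and 0.654 over 3500 CpGs. The levels of both pigs at these CpGs had a correlation of 0.711 on scaffolds, 0.818 on autosomes and 0.779 on X. Beyond the minimum of 10 reads, the CpGs were not matched by depth or level. These are descriptions across CpGs within the same 2 libraries. Among shared cytosines with at least 10 reads in both libraries, 0.751% on scaffolds and 1.05% on autosomes were below 20% in both, and 11.6% and 10.3% were above 90% in both.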

How the data were processed

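Per the file headers, the deposited lists give counts of methylated and unmethylated reads for each cytosine. They also give its level, which the authors deposited as a fraction. A p-value and its corrected form stand beside it, per the file headers. The submitters' processing notes name Bismark 0.12.5. For the build, read filters and duplicate handling nothing is given in the sources used here. Every listed cytosine was a CpG with at least 5 reads, 1 methylated read and a deposited corrected p-value below 0.05.

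Levels were recomputed from the counts (Python 3.11.15, pandas 2.3.3), without correction for non-conversion. Standard errors are clustered by scaffold, or by 1 kb window within a scaffold. They describe spread along the sequence. Wilson intervals (95%) and the limit of 3 counts for a count of 0 cover counting error only. Fisher's exact tests were adjusted over all nuclear CpGs or windows and were tested on simulated data. Strands of a CpG were summed. Named scaffolds are those with most cytosines (6), lowest and highest level (5 each), most negative and most positive difference (5 each), highest depth (4) and extreme read ratios (4 each). Named CpGs and windows are the 4 largest calls in each direction. The members and rules were chosen with earlier results of these data known. Alternatives covered depth, strand, weighting, window size and size minima.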

Additional observations from a re-analysis of the deposited data

How the results depend on the processing

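The level of the scaffolds moved by less than 0.4 points under every alternative tried. Over summed reads it was 74.6% at high and 73.4% at low altitude, with at least 10 reads in each library 74.4% and 73.3%, and with scaffolds weighted equally 74.96% and 73.9%. The difference stayed between −1.14 and −1.05 points under these and without cytosines deeper than 200 reads. The matched-depth gap to the autosomes was 0.169 points at high and 0.155 points at low altitude on the plus strand, 0.586 and 0.488 points on the minus strand, and −0.212 and −0.269 points at exactly equal depth, so its sign rests on the matching. The gap in the difference between the pigs stayed from −0.098 to −0.014 points. Called CpGs numbered 143 when CpGs with at least 5 reads were tested (206366 CpGs, 0.0693%, and 0.0788% on autosomes). Without CpGs deeper than 200 reads 233 were called (0.295%, and 0.320% on autosomes). In the main setting none of 177 CpGs tested on the 8 scaffolds with very deep cytosines was called (interval up to 2.12%). At 20 reads 167 were called (1.24%, and 1.17% on autosomes), and at 40 points 246 (0.312%, and 0.332%). Called windows numbered 25 when CpGs needed 10 reads, where 3058 windows were tested (0.818%, and 1.01% on autosomes). With windows of 500 bases 48 were called (0.523%, and 0.635%), and with windows of 2 kb 70 (0.376%, and 0.407%). Scaffolds lower by 5 points or more numbered 83 with a minimum of 50 shared cytosines (1269 scaffolds) and 1 with 300 (146 scaffolds), and scaffolds higher by 5 points 23 and 0. Differences of this size were thus seen mostly on scaffolds with few cytosines. By summed reads they numbered 33 and 5. Unequal depth was seen in 0 scaffolds under all alternatives, each of which kept a minimum of at least 50 shared cytosines. Smaller scaffolds, such as GL894518.1 and GL895316.1 with 32 and 28 shared cytosines, were not covered. No paired analysis was possible because each group had 1 pig.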
